A study of Mus musculus with 59 samples.

Results

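The *Atxn1* knockin mice analyzed here had 1 allele with a long CAG repeat, and the question was which hippocampal genes differ from wildtype once a library that carries brainstem transcripts is set aside. The comparison holds 7 of the 59 libraries of the series, 3 hippocampal libraries of Atxn1_154Q/2Q mice (named 154Q-69, 154Q-71, and 154Q-75 here, after the mouse numbers of the labels) and 4 of wildtype mice (WT-70 and WT-77, with WT-220 and also WT-221). A further 4 hippocampal libraries, of Atxn1_154Q[V591A;S602D]/2Q mice (154Q-AXH), entered the fit to share the estimate of the spread, and their values are given beside those of the 154Q mice. All mice were C57BL/6 and 10 weeks old, and each library was the bulk RNA of the hippocampus of 1 mouse. The expanded allele is a knockin, so it is expressed from the *Atxn1* locus in every cell that uses the gene, and in the 154Q-AXH mice the same expanded allele also holds the changes V591A and S602D in the AXH domain, which disrupt binding of ATXN1 to its partner CIC.

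ATXN1 is a nuclear protein that binds transcriptional regulators, and the best known of these is the repressor Capicua (CIC), which silences genes that are released by receptor tyrosine kinase and MAPK signalling. Expansion of the polyglutamine tract of ATXN1 causes spinocerebellar ataxia type 1, in which cerebellar Purkinje cells degenerate. The hippocampus, which serves learning and memory, holds the granule cells of the dentate gyrus, the pyramidal cells of the fields CA1 to CA3, and a minority of inhibitory interneurons, along with glia and vessels.

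The 7 libraries held 71.6 M to 106.5 M counted read pairs (84.6 M to 88.5 M in 154Q). Of 40 markers of the dentate gyrus and the CA fields, 23 had their highest WT mean in the hippocampus among the 5 regions of the series. The left-out library, labelled 154Q-76, held 3058 read pairs of *Hoxb5* and 29248 of *Slc6a5*, the glycine transporter of brainstem and spinal neurons, where the WT hippocampal libraries held at most 8 and 107, and 13 brainstem markers had there a median level of 49.5% of that of the WT brainstem, against 0.065% to 0.386% in the 7 libraries used. *Hoxb5* and *Slc6a5* were the reason for leaving it out and are among the 13, so this median is no separate support. 154Q-75 was the only female among the 7 (*Xist* 891 CPM, the read pairs of a gene relative to the TMM-scaled library total, and *Ddx3y* 0.125 CPM, against at most 2.19 CPM and at least 97.4 CPM in the other 6). *Ttr*, the choroid plexus transthyretin, ranged from 1330 to 5070 CPM in WT and from 1110 to 3730 CPM in 154Q. Read pairs on no annotated gene made up 9.90% of 154Q-69, 8.42% of 154Q-71, and 6.82% of 154Q-75, against 6.72% to 8.40% in WT.

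Of 21754 genes tested, 1318 (6.06%) differed between 154Q and WT at an adjusted p value under 0.05, 532 higher (2.45%) and 786 lower (3.61%). A fold change of 2 or more was reached by 108 of the raised and 122 of the lowered genes, and the median absolute log2 fold change was 0.45 among the raised and 0.46 among the lowered genes. The lowered genes were the more abundant, with a median WT mean of 45.8 CPM. It was 11.5 CPM for the raised genes and 7.54 CPM for all genes tested. Of the raised genes 105 (19.7%) had a WT mean under 1 CPM, and of the lowered genes 42 (5.34%). The share over all genes tested was 30.7%. The annotated span of the raised genes had a median of 39.8 kb, that of the lowered and of all tested genes 16.3 kb. In bulk tissue fewer cells of a type cannot be told apart from less RNA per cell. The count fell to 439 without 154Q-69, 506 without 154Q-71, and 780 without WT-220, and it was 979 (363 raised and 616 lowered) without the female 154Q-75. Against WT-70 and WT-77 alone, whose mouse numbers lie in the same range as those of the 154Q mice, 760 genes were called (422 raised and 338 lowered), and with the number range as a covariate 701 were raised and 672 lowered, so the excess of lowered genes did not hold in these comparisons.

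*Atxn1* measured 79.0, 64.7, 75.8, and 81.8 CPM in the WT libraries and 97.4, 95.0, and 95.0 CPM in the 154Q libraries (in all lists of values, in the order of the mouse numbers given above). Every 154Q library thus lay above every WT library, as was so for 9.15% of all genes tested, with no overlap in either direction for 19.6%. *Atxn1* rose by 0.35 on the log2 scale (SE 0.072, adjusted p = 0.0154), and by 0.30 in 154Q-AXH mice against the same WT mice (adjusted p = 0.03). The call was lost without 154Q-69, without 154Q-71, or with 154Q-76 added. *Cic* measured 116.6 to 148.7 CPM in WT and 143 to 146 CPM in 154Q, a difference of 0.08 (SE 0.081, adjusted p = 0.627), and none of the 8 partners tested beside *Atxn1* was called, *Atxn1l*, *Rfx1*, *Zkscan1*, *Zbtb5*, *Hdac3*, and *Rbm17* among them.

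Among 16 genes that CIC is known to repress downstream of MAPK signalling, 2 fell and none rose (12.5%, beside 6.06% of all genes). The median log2 fold change was -0.12, against 0.00 over all genes tested. *Dusp5*, a phosphatase that inactivates nuclear ERK, was narrowly spread in WT, at 26.3, 26.9, 25.7, and 27.3 CPM, and measured 9.25, 12.7, and 12.2 CPM in the 154Q libraries. The groups were far apart, with a log2 fold change of -1.22 (SE 0.181, adjusted p = 0.00263), and *Dusp5* was as low in 154Q-AXH mice (10.8, 8.48, 11.98, and 5.88 CPM in the 4 libraries). *Dusp4*, a related phosphatase, fell by 0.70 on the log2 scale (SE 0.137, adjusted p = 0.0117), from 28.3 ± 3.92 CPM (SD, n = 4) to 17.4 ± 1.15 CPM (SD, n = 3), but was not called without 154Q-69 or without 154Q-71. The transcription factor gene *Etv1* (-0.43, adjusted p = 0.145) and the phosphatase gene *Dusp6* (-0.40, adjusted p = 0.154) were not called.

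CIC binds a short octamer, and the promoters of the called genes were searched for it since it is the sequence the partner of ATXN1 is known to recognize. The promoters (RefSeq, GRCm38.p6, 250 bases before to 50 bases after the gene start) were found for 13923 of the genes tested, and the octamers TGAATGAA, TGAATGGA, TCAATGAA, and TCAATGGA were sought on both strands. They stood in 17 of 588 lowered genes (2.89%), 21 of 384 raised genes (5.47%), and 443 of the 13923 (3.18%). A match is a string of letters and not a bound site. Of the lowered and raised genes that hold an octamer upstream of the start, the 3 with the smallest p value in each direction are shown as 100 bases of the gene's own strand, with the octamer in capitals (the reverse complement where it lies on the other strand).
Wasf1: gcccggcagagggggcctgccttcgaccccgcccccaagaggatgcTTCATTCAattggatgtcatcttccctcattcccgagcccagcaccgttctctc
Neurod6: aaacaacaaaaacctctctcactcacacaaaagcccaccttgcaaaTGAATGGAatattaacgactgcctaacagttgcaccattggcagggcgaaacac
Fbxl16: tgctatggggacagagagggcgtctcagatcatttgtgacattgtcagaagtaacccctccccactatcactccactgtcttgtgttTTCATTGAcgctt
Hcrtr1: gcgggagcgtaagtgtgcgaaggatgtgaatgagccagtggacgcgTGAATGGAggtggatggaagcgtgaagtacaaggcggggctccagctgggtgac
Ddx60: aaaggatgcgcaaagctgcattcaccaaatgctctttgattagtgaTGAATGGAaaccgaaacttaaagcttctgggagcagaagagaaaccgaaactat
Wiz: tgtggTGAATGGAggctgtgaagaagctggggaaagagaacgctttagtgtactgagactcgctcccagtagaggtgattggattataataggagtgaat
*Wasf1* (chr10:40883426-40883525, plus strand), an actin regulator of spines, fell by 0.57 on the log2 scale with the octamer 62 bases upstream of the start. *Neurod6* (chr6:55681368-55681467, minus strand), a transcription factor of pyramidal neurons, fell by 0.81 with the octamer 158 bases upstream. *Fbxl16* (chr17:25808361-25808460, plus strand) fell by 0.45 with the octamer 13 bases upstream. Of the raised genes, *Hcrtr1* (chr4:130139267-130139366, minus strand), the orexin receptor 1 gene, rose by 0.96, the interferon-induced helicase gene *Ddx60* (chr8:61927982-61928081, plus strand) by 0.98, and *Wiz* (chr17:32387968-32388067, minus strand) by 0.32.

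Other motifs were counted in the same windows, on both strands. The CACGTG letters bound by basic helix-loop-helix factors such as BHLHE40 stood in 10.5% of lowered, 8.33% of raised, and 10.6% of all tested promoters. For the cyclic AMP response element (TGACGTCA, added) the shares were 3.06%, 3.65%, and 3.12%. The nonamers bound by EGR factors (GCGGGGGCG and GCGTGGGCG, added) stood in 10.9% of lowered, 8.07% of raised, and 6.78% of all tested promoters, and lowered promoters were richer in GC (median 63.3%, against 59.3% for raised and all). Of the 24 leading genes described next, 16 had a promoter in the table, none of these held a CIC octamer, and *Lingo3* alone held CACGTG, 91 bases upstream of its start (chr10:80844077-80844176, minus strand, CACGTG in capitals).
Lingo3: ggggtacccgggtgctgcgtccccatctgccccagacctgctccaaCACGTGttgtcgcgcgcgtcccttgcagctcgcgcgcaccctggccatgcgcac

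The 12 lowered genes with the smallest p values had differing roles. *Penk* (chromosome 4, 4133531 to 4138819), the precursor of the enkephalin opioid peptides, measured 19.9, 20.6, 17.1, and 17.6 CPM in WT and 4.86, 5.89, and 4.65 CPM in 154Q. It had the smallest p value of all genes, with a log2 fold change of -1.87 (SE 0.0991, adjusted p = 4.1e-06), and the 4 154Q-AXH libraries lay at 5.81 to 6.13 CPM, also apart from WT (-1.64, adjusted p = 5.2e-06). *Bhlhe40* (chromosome 6, 108660629 to 108666925), a transcriptional repressor tied to the clock and to neuronal activity, measured 112, 98.9, 118, and 112 CPM in WT and 52.0, 59.4, and 58.2 CPM in 154Q (-0.96, SE 0.0699, adjusted p = 5.9e-05). Neither gene has an entry in the promoter table.

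*Itpka* (chromosome 2, 119742337 to 119751263), an inositol trisphosphate kinase that bundles actin in spines, was tightly grouped in WT at 183, 190, 191, and 184 CPM and measured 64.0, 75.5, and 84.1 CPM in 154Q (-1.33, SE 0.105, adjusted p = 5.9e-05). *Rin1*, a Ras effector of forebrain neurons, fell from 71.2 to 90.2 CPM in WT to 36.7 to 41.0 CPM in 154Q (-1.03, adjusted p = 5.9e-05), and *Grasp*, a scaffold for metabotropic glutamate receptors, from 55.6 to 58.0 CPM to 30.02 to 35.3 CPM (-0.80, adjusted p = 5.9e-05). *Epha10*, a kinase-dead Eph receptor, went from 40.3 to 46.5 CPM to 18.8 to 22.7 CPM (-1.05), and *Lingo3*, a leucine-rich repeat protein, from 42.0 to 48.7 CPM to 16.7 to 19.2 CPM (-1.30). *Hapln1*, the link protein of the extracellular matrix nets around neurons, fell by 0.65 on the log2 scale, the bone morphogenetic protein antagonist *Nbl1* by 0.96, and *Kcnh3*, a voltage-gated potassium channel, by 0.74, each with an adjusted p value of 6.1e-05. *Ier5l*, a relative of an immediate early gene, was 12.4 ± 1.81 CPM (SD, n = 4) in WT and 3.30 ± 0.224 CPM (SD, n = 3) in 154Q (-1.91).

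The largest decreases among genes of at least 1 CPM were in less abundant transcripts. *Tmprss6*, a membrane serine protease, fell from 1.08 ± 0.255 CPM (SD, n = 4) to 0.107 ± 0.0539 CPM (SD, n = 3), a log2 fold change of -3.35. *Alox12b*, a lipoxygenase gene, measured 5.96 to 7.23 CPM in WT and 0.812 to 1.20 CPM in 154Q, with an adjusted p value of 5.9e-05. *Plk5*, a brain polo-like kinase and a marker of dentate granule cells, measured 25.3, 25.5, 22.8, and 28.3 CPM in WT and 5.12, 4.56, and 3.55 CPM in 154Q (-2.53, SE 0.216, adjusted p = 6.1e-05). *Fst*, which encodes the activin antagonist follistatin, fell by 2.31 and the myosin light chain kinase gene *Mylk3* by 2.30 on the log2 scale. All 16 genes of these paragraphs kept their call in each fit that left out 1 of the 7 libraries.

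**Figure D1:**
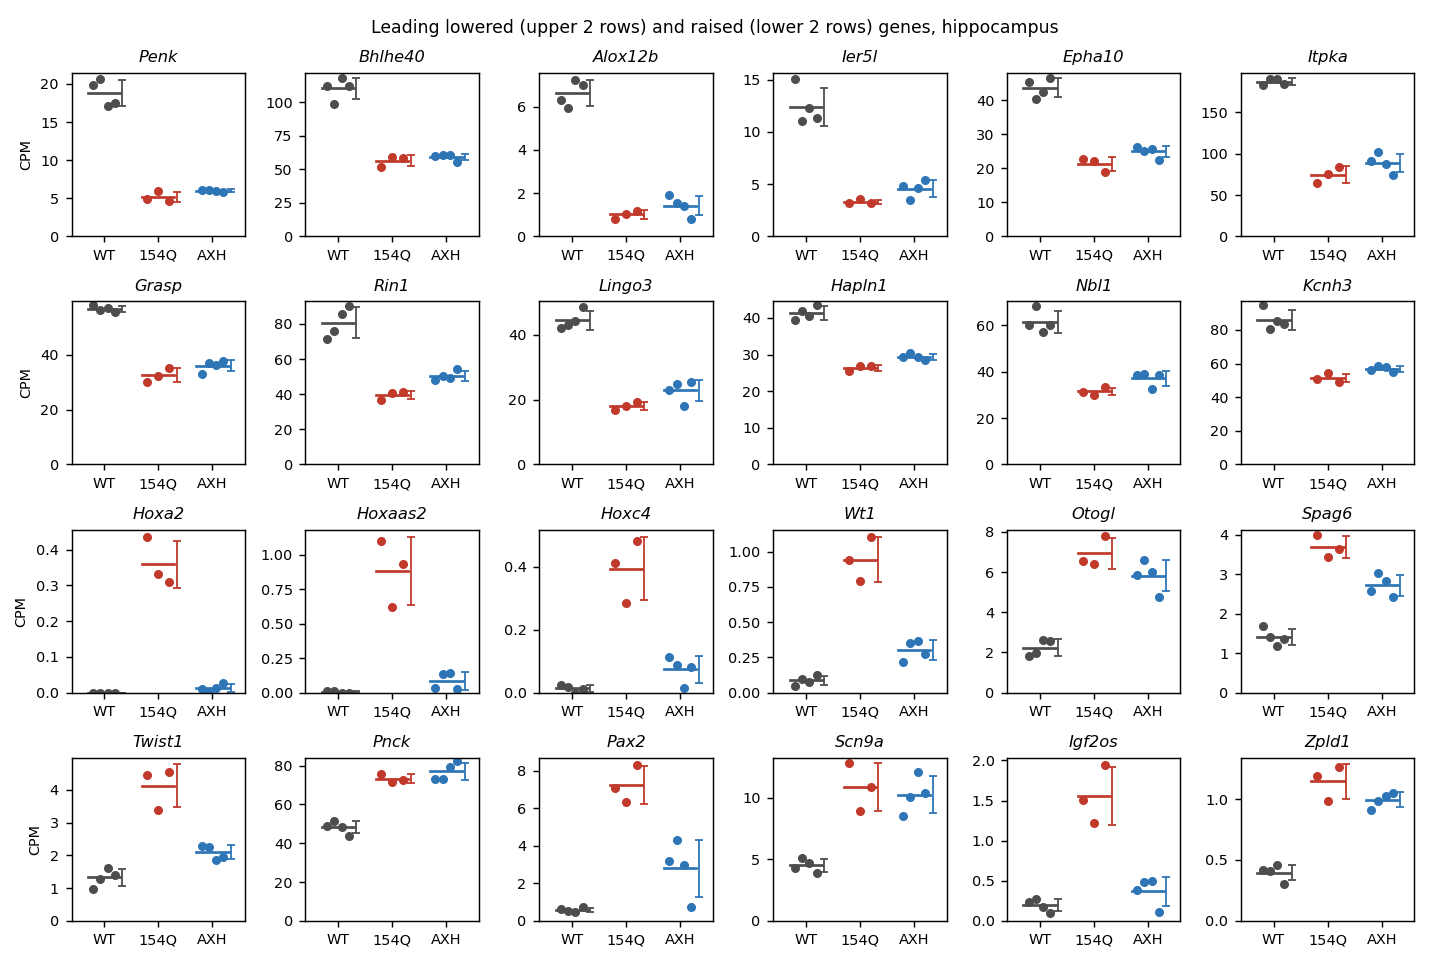
CPM in each hippocampal library (points), group mean (line), and SD (bar) of the 12 lowered and the 12 raised genes with the smallest p values, in 4 WT, 3 154Q, and 4 154Q-AXH libraries, each panel with its own axis from 0. In every panel the 154Q points lie outside the range of the WT points, as the choice of genes required.

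Of 22 genes of the postsynaptic scaffold and its signalling, 11 fell and none rose (beside 6.06% of all genes called), with a median log2 fold change of -0.28. *Git1*, a scaffold that organizes Rac signalling in spines, measured 353, 297, 333, and 355 CPM in WT and 180, 180, and 200 CPM in 154Q (-0.84, SE 0.0726, adjusted p = 6.6e-05). The exchange factor *Kalrn* fell from 695 ± 68.4 CPM (SD, n = 4) to 469 ± 4.54 CPM (SD, n = 3), a log2 fold change of -0.57 (adjusted p = 0.00142). *Dlg4*, which encodes the main scaffold PSD-95, fell by 0.41 (adjusted p = 0.00392), and *Homer3* by 1.20 (adjusted p = 0.00202). The others called included *Dlgap1*, *Homer1*, *Camk2a*, *Nrgn*, *Dlgap3*, and *Camk2b*, at -0.35 to -0.62. *Shank1*, *Shank2*, and *Shank3* were not called (-0.24, 0.13, and -0.29). Without 154Q-69 or without 154Q-71, 6 genes of the list were called, and 5 against WT-70 and WT-77 alone.

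Of 29 genes of ionotropic glutamate receptors and their auxiliary subunits, 6 fell and none rose (20.7%, median -0.18). *Cnih2*, an auxiliary subunit that slows AMPA receptor closure, had the smallest p value, at 320, 396, 363, and 373 CPM in WT and 171, 198, and 220 CPM in 154Q (-0.89, SE 0.101, adjusted p = 0.00044). The NMDA receptor subunit *Grin2a* fell by 0.63 (adjusted p = 0.008), the AMPA receptor auxiliary subunit *Cacng8* by 0.43 (adjusted p = 0.0119), and the AMPA receptor subunit *Gria1* by 0.47 (adjusted p = 0.0142), and *Grik5* and *Gsg1l* were the other members called. None of the 7 metabotropic glutamate receptor genes was called (median -0.16), and the smallest p values were those of *Grm2* (-0.47, adjusted p = 0.219) and *Grm3* (-0.17, adjusted p = 0.289). The ionotropic count was 2 without 154Q-69, 3 without 154Q-71, 10 without WT-77, and 2 against WT-70 and WT-77 alone.

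Calcium-dependent kinase and phosphatase genes, a list written after the leading genes were seen, held 6 lowered genes of 18 tested. The share was 33.3%, beside 6.06% of all genes, and 1 of the 6 was *Itpka*, a leading gene described above. *Ppp3ca*, the most abundant calcineurin catalytic subunit, fell by 0.61 (adjusted p = 0.00228) and the regulatory subunit *Ppp3r1* by 0.56 (adjusted p = 7.7e-04). The kinase kinases *Camkk1* (-0.61) and *Camkk2* (-0.42) fell too, as did *Calm3* (-0.27). Against WT-70 and WT-77 alone 3 of the list were called. *Pnck*, which encodes a calcium/calmodulin-dependent kinase I isoform on the X chromosome, went the other way, from 43.9 to 51.7 CPM in WT to 71.4 to 75.7 CPM in 154Q (0.60, SE 0.0639, adjusted p = 3.0e-04), and the male and female 154Q libraries were alike in it (75.7 and 71.4 CPM in the males, 72.8 CPM in 154Q-75).

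Of 18 genes of GABA receptors and chloride transport, 3 fell (16.7%, median -0.06). *Gabra5* and *Gabrd* encode subunits of extrasynaptic receptors. *Gabrd* measured 32.2, 23.3, 23.0, and 25.2 CPM in WT and 11.4, 10.2, and 10.9 CPM in 154Q (-1.26, SE 0.163, adjusted p = 0.00107), and *Gabra5* fell from 173 ± 15.2 CPM (SD, n = 4) to 106 ± 10.3 CPM (SD, n = 3), a log2 fold change of -0.71 (adjusted p = 5.2e-04).

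Among 40 potassium channel genes, 6 fell and 2 rose (beside 6.06% of all genes called, median -0.10). Beside *Kcnh3*, the lowered members were the Kv beta subunits *Kcnab1*, *Kcnab2*, and *Kcnab3*, the fast-spiking channel *Kcnc1* (-0.46, adjusted p = 0.013), and the A-current subunit *Kcnip4* (-0.34, adjusted p = 0.0189). *Kcnab2* fell from 727 ± 68.3 CPM (SD, n = 4) to 523 ± 46.3 CPM (SD, n = 3), a log2 fold change of -0.47 (adjusted p = 0.00633). The raised members were the small-conductance channel *Kcnn3* (0.37) and *Kcna3* (0.60). Only 2 members were called without 154Q-69 or without 154Q-71, and 5 without WT-220 or without WT-221.

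Of 25 genes of calcium channels and stores, 3 fell and 2 rose (beside 6.06% of all genes called, median 0.03). The plasma membrane calcium pump *Atp2b1* fell from 1448 ± 174 CPM (SD, n = 4) to 1009 ± 44.6 CPM (SD, n = 3), a log2 fold change of -0.52 (adjusted p = 0.00525), with the channel subunits *Cacnb3* (-0.27) and *Cacnb1* (-0.32). The pore subunits *Cacna1b* of N-type channels (0.39, adjusted p = 0.00998) and *Cacna1g* of T-type channels (0.57, adjusted p = 0.0416) rose. The sodium channel gene *Scn9a* was among the leading raised genes, at 4.33, 5.12, 4.66, and 3.88 CPM in WT and 12.8, 8.89, and 10.9 CPM in 154Q (1.27, SE 0.147, adjusted p = 5.2e-04). The sodium channel beta subunit *Scn4b* fell from 28.4 to 36.9 CPM to 13.2 to 14.1 CPM (-1.23). Without 154Q-69 a single calcium gene was called, and without 154Q-71 there were 2.

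Of 12 dentate granule cell markers, 4 fell (33.3%, median -0.49), of 10 CA3 markers 3 (median -0.35), of 8 CA2 markers 2 (25.0%, median -0.32), and of 10 CA1 markers 2 (median -0.40). None rose. In the dentate list *Plk5*, *Lct* (-1.51, adjusted p = 0.013), *C1ql2* (-1.36, adjusted p = 0.0136), and *Trpc6* (-0.95, adjusted p = 0.0167) were called, while *Prox1*, the transcription factor that defines granule cells, was not (-0.22, adjusted p = 0.706). The synaptic organizer *C1ql2* measured 54.7, 84.3, 69.1, and 77.2 CPM in WT and 24.5, 28.1, and 30.8 CPM in 154Q, and 36.5, 49.3, 49.2, and 97.3 CPM in 154Q-AXH. The 154Q libraries were below every WT library, and the 154Q-AXH libraries overlapped with WT.

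For CA3, *Bok*, a BCL2 family member, measured 62.5, 70.1, 64.2, and 65.6 CPM in WT and 25.7, 24.3, and 28.1 CPM in 154Q (-1.33, SE 0.12, adjusted p = 1.0e-04), *Cdh24* fell by 1.35 (adjusted p = 9.0e-04), and *Nectin3* by 0.36 (adjusted p = 0.0352), while *Grik4* was not called (0.09, adjusted p = 0.7). For CA2, *Rgs14*, which restrains plasticity in that field, measured 84.3, 93.6, 90.3, and 93.4 CPM in WT and 44.9, 50.6, and 50.5 CPM in 154Q (-0.89, SE 0.0812, adjusted p = 1.0e-04), and *Amigo2* fell by 0.81 (adjusted p = 0.0116). For CA1, *Wfs1*, a protein of the endoplasmic reticulum, measured 138, 115, 124, and 123 CPM in WT and 30.5, 49.8, and 43.9 CPM in 154Q (-1.59, SE 0.245, adjusted p = 0.00332), *Lefty1* fell by 1.95 (adjusted p = 0.0109), and *Fibcd1* was not called (-0.37, adjusted p = 0.606). Summed over the tested markers, the dentate list went from 704.8 to 884.3 CPM in WT to 513.4 to 555.4 CPM in 154Q, and CA1 from 818.9 to 953.3 CPM to 546.5 to 706.3 CPM. Without 154Q-69 or without 154Q-71, 1 dentate, 1 CA2, and 1 CA1 marker were called, and against WT-70 and WT-77 alone also 1 of each.

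Of 15 interneuron markers, 5 fell and none rose (33.3%), and all 15 had a negative log2 fold change (median -0.40). *Gad1*, which makes GABA, was tightly grouped in WT at 370, 372, 378, and 379 CPM and measured 277, 264, and 297 CPM in 154Q (-0.42, SE 0.0579, adjusted p = 0.00161). *Npy* fell from 32.9 to 38.3 CPM to 18.9 to 25.2 CPM (-0.65, adjusted p = 0.00235), and *Htr3a*, *Lamp5*, and *Vip*, of caudal-origin interneurons, fell by 0.67, 1.13, and 0.98 (adjusted p = 0.013, 0.013, and 0.0357). *Lamp5* is also a cortical marker, and WT-70 stood apart in it, at 72.2 CPM against 36.8 to 37.2 CPM in the other WT libraries. *Sst* (-0.87, adjusted p = 0.122) and *Pvalb* (-0.40, adjusted p = 0.226) were not called. The count was 3 without 154Q-69 and 2 without 154Q-71.

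Of 20 neuropeptides and secreted neuronal factors, 8 fell and 1 rose (45.0%, median -0.48). Beside *Penk*, *Npy*, and *Vip*, the lowered genes were *Bdnf*, *Igfbp5*, *Pdyn*, *Igf1*, and *Crh*. *Bdnf*, the main activity-regulated neurotrophin, measured 59.8, 60.9, 54.3, and 60.5 CPM in WT and 40.6, 43.8, and 47.0 CPM in 154Q (-0.43, SE 0.0752, adjusted p = 0.00674), and 50.1 to 60.5 CPM in 154Q-AXH (-0.09, adjusted p = 0.505). *Pdyn*, the dynorphin precursor of dentate granule cells, fell by 1.19 (adjusted p = 0.0226). The exception was *Nts*, the neurotensin precursor, which rose from 5.57 ± 0.611 CPM (SD, n = 4) to 14.4 ± 3.69 CPM (SD, n = 3), a log2 fold change of 1.38 (adjusted p = 0.00206). The count was 5 without 154Q-69, 4 without 154Q-71, and 5 against WT-70 and WT-77 alone.

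Of 20 immediate early genes, 4 fell and none rose (beside 6.06% of all genes called, median -0.39). The lowered genes were *Egr3* (-0.57, adjusted p = 0.0119), *Fosl2* (-0.69, adjusted p = 0.0211), *Klf4* (-0.74, adjusted p = 0.0217), and *Ier5* (-0.49, adjusted p = 0.0283). The best known members were lower on average without being called, *Arc* by -0.92 (adjusted p = 0.0621) and *Nr4a1* by -0.66 (adjusted p = 0.124). Without 154Q-69 no member was called (edgeR; 1 was called without 154Q-71, and 2 without WT-220 or without WT-221).

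Of 18 clock genes, 7 fell and none rose (38.9%, median -0.35). After *Bhlhe40*, the members with the smallest p values were *Dbp*, an output factor of the clock (35.2 to 43.6 CPM in WT and 25.1 to 29.2 CPM in 154Q, -0.59, adjusted p = 0.00714), the repressor *Nr1d1* (-0.48, adjusted p = 0.00954), and *Bhlhe41* (-0.36, adjusted p = 0.0136), followed by *Ciart*, *Tef*, and *Per1*. *Clock* itself was not called (0.21, adjusted p = 0.16). The time of day of dissection is not given in the sources used here. The count was 2 without 154Q-69 and 4 without 154Q-75 or without WT-220.

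Of 16 genes of neurogenesis and proliferation, only *Dcx*, the doublecortin of immature neurons, was called (6.25%, beside 6.06% of all genes). It measured 33.0, 23.6, 28.6, and 28.2 CPM in WT and 49.7, 39.9, and 36.8 CPM in 154Q (0.57, SE 0.12, adjusted p = 0.0165), and *Mki67* (-0.31, adjusted p = 0.398) and *Top2a* (-0.52, adjusted p = 0.0619) were not called. The *Dcx* call was lost without 154Q-69, against WT-70 and WT-77 alone, or with 154Q-76 added. *Dcx* lies on the X chromosome. Of 9 polyglutamine disease genes *Atxn1* alone was called. Heat shock chaperones held 4 lowered genes of 19 (21.1%, median -0.14), *Hspa1b* (-1.44, adjusted p = 2.5e-04), *Hspa1a* (-0.85, adjusted p = 0.0109), *Dnajb5*, and *Hspb1*, and the first 2 are near-identical copies whose counts cannot be fully separated. The count was 1 without 154Q-69 and 2 without 154Q-71. Cholesterol synthesis held 3 lowered genes of 19 (15.8%, median -0.08), *Mvd* (-0.31), *Msmo1* (-0.34), and *Cyp51* (-0.24), none of which was called without 154Q-69, without 154Q-71, or without WT-70, and 1 was without 154Q-75 or without WT-77.

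**Figure D2:**
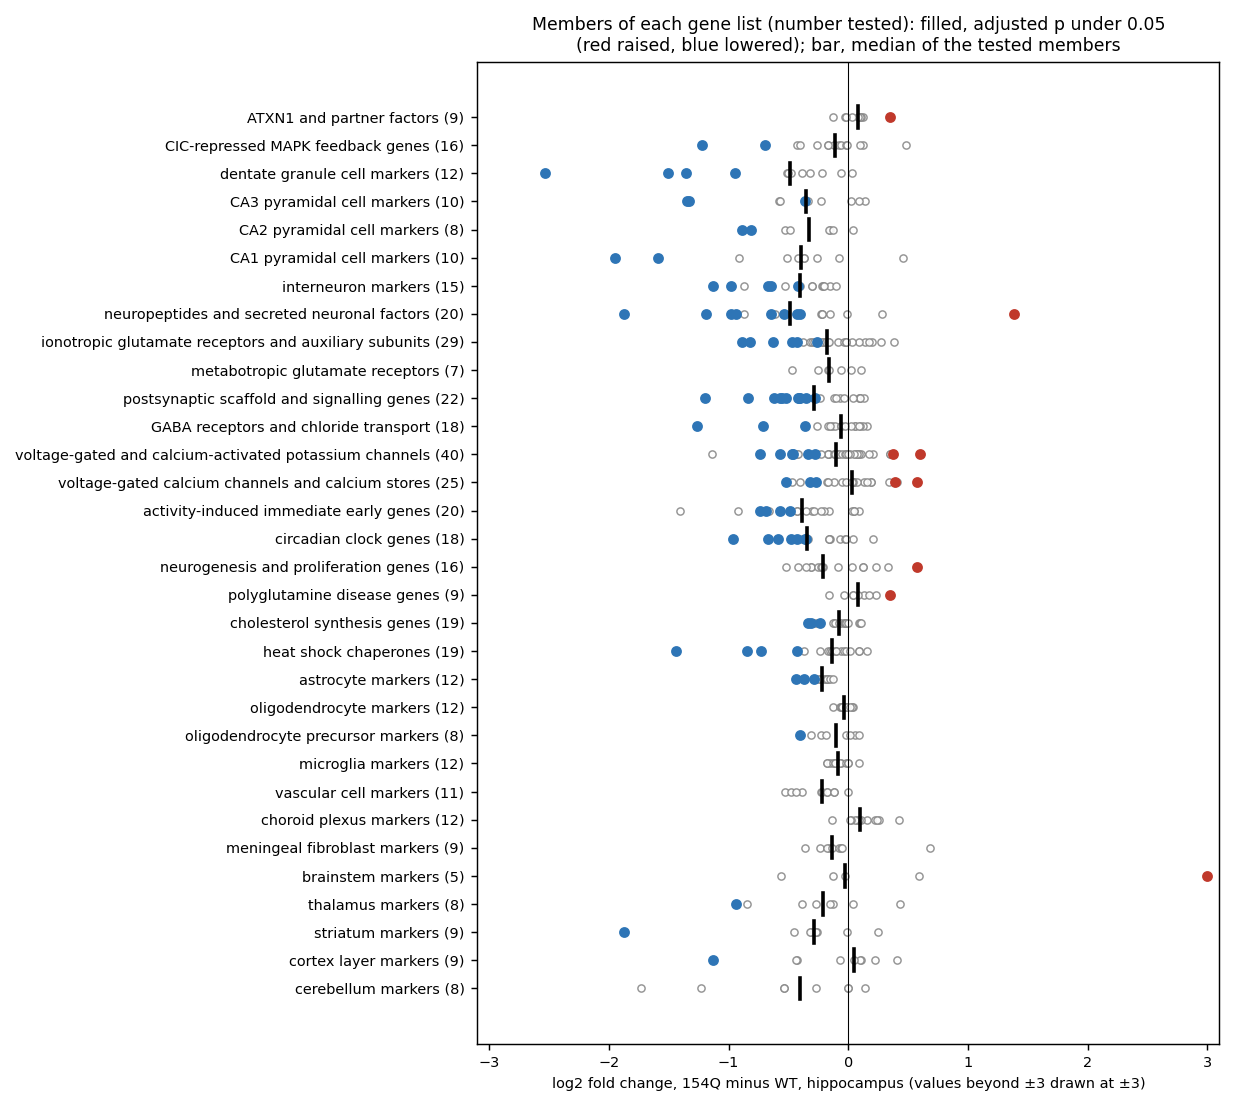
Log2 fold change of 154Q against WT for the tested members of each gene list (points, filled where the adjusted p value is under 0.05, red for raised and blue for lowered), with the list median as a bar. Most filled points lie to the left of 0, and the members of the oligodendrocyte, microglia, and choroid plexus lists are all open.

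None of 12 oligodendrocyte, 12 microglia, 11 vascular, 12 choroid plexus, or 9 meningeal markers was called (medians -0.03, -0.09, -0.22, 0.10, and -0.14). Of 12 astrocyte markers 3 fell (25.0%, median -0.22), the gap junction genes *Gja1* (-0.29, adjusted p = 0.00998) and *Gjb6* (-0.44, adjusted p = 0.015), and *Gfap* (-0.37, adjusted p = 0.023), but none was called without 154Q-71 and 1 without 154Q-69. Of 8 oligodendrocyte precursor markers *C1ql1* fell by 0.40, a call lost when any 1 of the 4 WT libraries, 154Q-69, or 154Q-71 was left out. Summed levels overlapped between the groups, for oligodendrocytes 6720 to 8849 CPM in WT and 6811 to 8055 CPM in 154Q, and for microglia 349.9 to 391.1 CPM and 337.3 to 373.1 CPM. The choroid plexus sum ranged from 2547 to 8606 CPM in WT and from 2228 to 6182 CPM in 154Q.

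Of 9 striatal markers *Penk* alone was called, of 9 cortical layer markers *Lamp5* (lost without 154Q-71), of 8 thalamic markers *Prkcd* (-0.94, adjusted p = 0.00488), and of 8 cerebellar markers none. Of 13 brainstem markers 5 passed the filter on low counts and 1, *Hoxc4*, was raised. Their summed level was 2.06 to 3.40 CPM in WT and 2.57 to 4.75 CPM in 154Q, against 318.2 CPM in the left-out library.

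Hox genes set position along the body axis in the embryo and are silent in the forebrain, where Polycomb complexes keep them closed. The Hox list was written after the leading genes were seen. *Hoxa2* (chromosome 6, 52162417 to 52164831) had no read pair in any WT hippocampal library and 38, 29, and 27 read pairs in 154Q-69, 154Q-71, and 154Q-75, at least 9.74-fold higher on a floor of 3 counts per library. *Hoxc4* (chromosome 15) had 2, 2, 0, and 1 read pairs in WT and 36, 25, and 42 in 154Q. *Hoxa7* had 3, 22, 10, and 7 against 64, 54, and 70, *Hoxc6* 1, 3, 0, and 3 against 27, 22, and 41, and *Hoxd8* 2, 3, 0, and 0 against 33, 12, and 16. *Hoxaas2*, an antisense transcript whose span overlaps that of *Hoxa3*, had 1, 1, 0, and 0 against 96, 54, and 81, and without strand the reads of the overlap cannot be told apart.

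The other Hox genes were not like these. Of 39 Hox genes in the files, only these 5 passed the filter on low counts, which a gene near 0 in WT could pass only by being higher in another group, so their calls are given as values and not as a count of the family. In 10 of the 39 all 154Q counts lay above all WT counts (of all genes tested, 9.15% had this order in CPM), *Hoxb2* (7, 8, and 9 against at most 3) among them. Of the 8 Hox genes with over 1000 read pairs in the WT brainstem, *Hoxc4* was raised and the other 7 had at most 17 read pairs in the 154Q and at most 13 in the WT hippocampal libraries. *Hoxa5*, the most abundant of these in the brainstem (a mean of 3935 read pairs), had 9, 4, 2, and 5 in WT and 12, 0, and 5 in 154Q, and *Hoxb5* had 8, 4, 0, and 0 against 6, 17, and 5. *Hoxa2*, with 384.2 read pairs in the brainstem on average, thus had more in the 154Q hippocampus than *Hoxa5* or *Hoxb5*. In the 154Q-AXH hippocampus *Hoxa2* had 1, 0, 1, and 2 read pairs and *Hoxaas2* 3, 11, 10, and 2. *Hoxa7* had 28, 24, 24, and 38 there, all above the WT maximum of 22. *Hoxc4* had 11, 7, 1, and 6, *Hoxc6* 11, 1, 16, and 7, and *Hoxd8* 14, 11, 0, and 6.

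**Figure D3:**
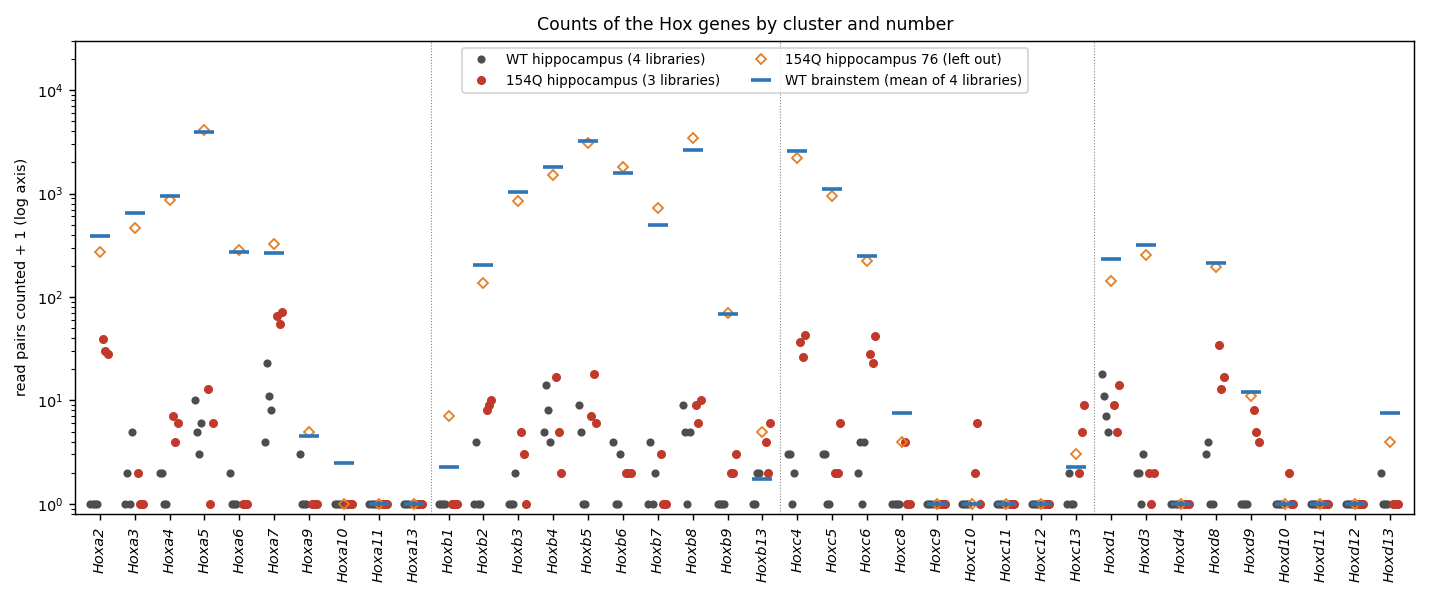
Read pairs plus 1 (log axis) of Hox genes in the 4 WT (grey) and 3 154Q (red) hippocampal libraries, in the left-out library 154Q-76 (orange diamonds), and as the mean of the WT brainstem (blue bars). The left-out library follows the brainstem in every cluster, while the 3 154Q libraries rise above WT at *Hoxa2*, *Hoxa7*, *Hoxc4*, *Hoxc6*, and *Hoxd8* and stay near WT at *Hoxa5*, *Hoxb5*, and *Hoxb8*.

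Further transcription factors of development, on a list also written after the leading genes were seen, were raised from low levels. *Pax2* (chromosome 19, 44756045 to 44837871) measured 0.617, 0.519, 0.460, and 0.725 CPM in WT and 7.07, 6.34, and 8.30 CPM in 154Q (3.64, SE 0.401, adjusted p = 3.8e-04), and 0.711 to 4.32 CPM in 154Q-AXH. *Wt1* rose from 0.0859 ± 0.0329 CPM (SD, n = 4) to 0.943 ± 0.157 CPM (SD, n = 3), a log2 fold change of 3.42 (adjusted p = 6.1e-05), *Twist1* from 1.32 ± 0.267 CPM (SD, n = 4) to 4.14 ± 0.661 CPM (SD, n = 3), a change of 1.65 (adjusted p = 2.0e-04), and the corepressor gene *Skor1* from 0.0994 ± 0.0529 CPM (SD, n = 4) to 1.47 ± 0.575 CPM (SD, n = 3), a change of 3.79 (adjusted p = 9.0e-04). *Nkx1-1* had no read pair in WT and 28, 19, and 42 in 154Q, at least 9.23-fold higher on the same floor. *Tal1* (1.58, adjusted p = 0.00396) and *Onecut2* (1.19, adjusted p = 0.00628) were the more abundant members. Of 72 such genes in the files, 51 passed the filter, and 11 of these rose (21.6%, beside 6.06% of all genes). None fell, 40 were not called, and the median was 0.05. On counts of the first strand 7 were called. *Pax2*, *Wt1*, and *Twist1* were among the 12 raised genes with the smallest p values, seen before the list was written.

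The Polycomb subunits, again a list written after the leading genes were seen, were mixed. Of 35 tested, 4 rose and 3 fell (beside 6.06% of all genes called, median -0.01). *Cbx8* rose from 10.0 to 11.6 CPM in WT to 14.3 to 16.2 CPM in 154Q (0.55, adjusted p = 0.00142), and *Cbx2* (0.55, adjusted p = 0.0294) and *Sfmbt2* (1.10, adjusted p = 0.00189) rose with it. *Epop*, a subunit of Polycomb repressive complex 2, fell from 23.8 to 37.6 CPM to 10.4 to 11.1 CPM (-1.45, adjusted p = 3.8e-04), and *Phc2* and *Bap1* each fell by 0.17. Without 154Q-69, without 154Q-71, without WT-220, or without WT-221 the counts were 3 raised and 1 lowered.

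Other leading raised genes had different roles. *Otogl*, an otogelin relative, measured 1.80, 1.99, 2.63, and 2.56 CPM in WT and 6.57, 6.40, and 7.82 CPM in 154Q (1.64, SE 0.149, adjusted p = 1.0e-04), and *Spag6*, of the ciliary axoneme, 1.18 to 1.69 CPM and 3.44 to 3.99 CPM (1.39, adjusted p = 1.6e-04). *Zpld1* rose by 1.53 from 0.397 CPM on average. *Igf2os* rose from 0.197 ± 0.0759 CPM (SD, n = 4) to 1.56 ± 0.362 CPM (SD, n = 3), a log2 fold change of 2.93, but it overlaps *Igf2* (0.68, adjusted p = 0.348), and without strand their reads cannot be told apart. *Atp6v1b1*, a proton pump subunit, rose by 2.36 (adjusted p = 0.00998) and the antisense transcript *Spag17os* by 2.09 (adjusted p = 0.00379). *Spag17os* overlaps *Spag17*, and their reads cannot be told apart either. The call of *Atp6v1b1* was lost without 154Q-69. On the X chromosome lay 43 of the raised genes (8.08%), against 3.31% of the genes tested and 2.29% of the lowered genes. Without the female 154Q-75, 20 of those 43 and 250 of the 489 raised genes of other chromosomes were called.

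Another 3 gene families were listed after the leading genes were seen. Of 39 interferon-stimulated genes tested, 10 rose and none fell (25.6%, median 0.25), with *Irgm1* (7.53 to 8.47 CPM in WT, 10.1 to 10.7 CPM in 154Q, 0.42, adjusted p = 0.00475) and *Oasl2* (0.60, adjusted p = 0.00491) at the head and *Ddx60* (0.98, adjusted p = 0.00817) with the largest difference. The interferon response element, on either strand, stood in 4 of the 9 raised members with a promoter, 13 of 18 members not called, and 3.72% of all tested genes. The count of raised members was 6 without 154Q-69 or without WT-220, and 4 against WT-70 and WT-77 alone. Of 56 clustered protocadherins, adhesion genes chosen at random by each neuron, 14 rose and none fell (25.0%), and 54 had a positive log2 fold change (median 0.32), led by *Pcdhga9* (0.89, adjusted p = 0.00223). Their neighbouring exons share sequence, and 3 were called without 154Q-69, 5 without 154Q-75, 8 without 154Q-71 or without WT-77 (1 of these 8 lowered for the latter), and 9 without WT-220 or without WT-70. Of 395 zinc finger genes of the Zfp, Zkscan, and Zscan names, 14 rose and 4 fell (4.56%, median 0.05), below the share over all genes, and 5 were called without 154Q-69, 7 without 154Q-71, 10 without WT-220, and 11 without WT-221.

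With 154Q-76 in the fit 1268 genes were called, 1015 of them shared with the 1318 called without it (all but 303 of these, and all but 253 of those with it). The 303 genes called only without it (133 raised and 170 lowered) included *Penk*, at 57.5 CPM in 154Q-76 against 17.1 to 20.6 CPM in WT, and *Scn4b*, at 248 CPM against 28.4 to 36.9 CPM. With 154Q-76 the fitted change of *Scn4b* turned from -1.23 to 1.17. *Them6* (39.6 CPM in 154Q-76, 16.3 to 19.4 CPM in the other 154Q libraries) was the next of the lowered genes, and *Dnah5* (0.67), *Capn5* (0.35), and *Sec14l4* (1.25) were the leading raised genes of this set. The 253 genes called only with it (142 raised and 111 lowered) were led by *Me2*, *Lta4h*, and *Tmem43* (0.24, 0.19, and 0.19 without it) and by *Dio3*, *Llph-ps2*, and *Bmp1* (-1.79, -0.93, and -0.69 without it). Of the 1318 genes, 12 changed sign with 154Q-76.

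The same 7 mice, by their labels, also gave cortical and cerebellar libraries. The cortical library labelled WT-221 goes against its label, for it held *Xist* at 485 CPM and *Ddx3y* at 0.925 CPM while the hippocampal and cerebellar libraries of WT-221 were male (*Ddx3y* 97.4 and 157 CPM). Of the 1302 hippocampal calls tested with the cortex, 455 (34.9%) were also called there, 453 in the same direction, where 6.00% of all genes were called. Of the 1314 tested with the cerebellum, 88 (6.70%) were called there, 79 in the same direction, where 1.72% of all genes were called. The median effect of the lowered genes was -0.46 in the hippocampus, -0.29 in the cortex, and -0.04 in the cerebellum, and that of the raised genes 0.45, 0.28, and 0.12.

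The effect itself differed between hippocampus and cortex for 23 of 20944 genes (0.11%) and between hippocampus and cerebellum for 405 of 22420 genes (1.81%). With the labelled mouse as a block the counts were 15 and 719, where the cortical value takes the library labelled WT-221 as its mouse. Of the 23, *Rgs14* fell in the hippocampus with a smaller value in the cortex (-0.90 and -0.15, difference -0.75, adjusted p = 0.0142, and 0.0518 with the block), and *Stxbp6*, an exocytosis regulator, likewise (-0.97 and -0.27, difference -0.70, adjusted p = 0.0181). *Rem2* (0.91 in the cortex) and *Prdm8* (0.71) rose in the cortex with hippocampal values of -0.18 and -0.27 (differences -1.09 and -0.98, adjusted p = 0.0181 and 0.0188, the latter 0.0811 with the block). *Mpp3*, *Mybpc3*, and *Nell1* had differences of 0.72, 2.94, and 0.72 (adjusted p = 0.0142, 0.0181, and 0.0266, *Mybpc3* 0.0518 with the block). The count of differences with the cortex moved with single mice. It was 1 without 154Q-69, without 154Q-75, or without WT-221, 2 without 154Q-71, 3 without WT-220, and 14 without WT-77, and it was 153 without WT-70.

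Against the cerebellum 285 of the 405 effects were more negative in the hippocampus. *Penk*, which also fell in the cortex (-1.02, adjusted p = 0.00145 there), measured 55.5 ± 3.09 CPM (SD, n = 4) in WT and 55.9 ± 1.57 CPM (SD, n = 3) in 154Q cerebellum (difference -1.89, adjusted p = 9.3e-07). *Lingo3* (difference -1.15, adjusted p = 6.1e-05) and the small GTPase gene *Rasd1* (35.6 to 11.9 CPM in the hippocampus, 3.23 to 2.73 CPM in the cerebellum, difference -1.34, adjusted p = 5.1e-05) were also more negative in the hippocampus, and *Fam163b* rose in the cerebellum from 4.18 ± 0.646 CPM (SD, n = 4) to 12.9 ± 3.62 CPM (SD, n = 3), with a difference of -2.11 (adjusted p = 6.4e-05). *Pax2* and *Skor1* had cerebellar changes of 0.02 and 0.06, and their differences were 3.62 and 3.72 (adjusted p = 4.0e-08 and 6.0e-04). *Hoxc4*, with at most 0.154 CPM in the cerebellum, had a difference of 6.29, and *Plcb3*, a phospholipase of Purkinje cells, fell in the cerebellum from 68.8 ± 4.63 CPM (SD, n = 4) to 39.0 ± 1.52 CPM (SD, n = 3), with a difference of 0.67 (adjusted p = 6.0e-04). Leaving out 1 mouse gave 107 to 443 genes, 107 without 154Q-71 and 153 without WT-220, 191 without 154Q-75, 184 without WT-221, and 40 more positive with 169 more negative without 154Q-69.

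**Figure D4:**
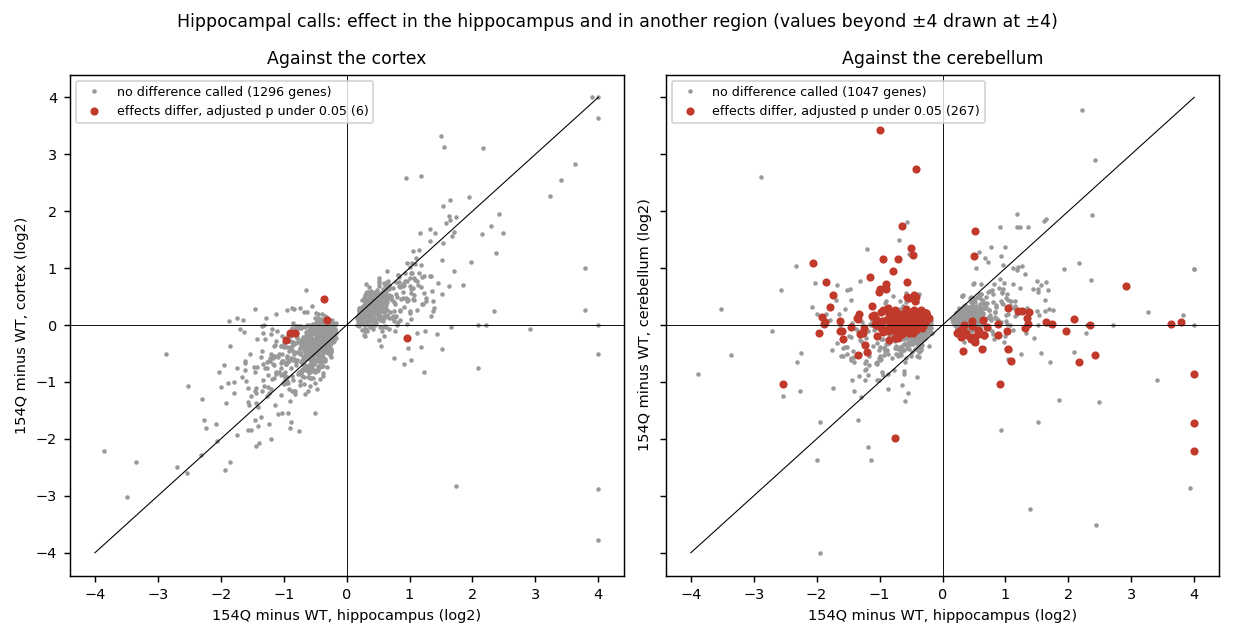
Log2 fold change of 154Q against WT in the hippocampus (horizontal axis) and in the cortex or cerebellum (vertical axis) for the genes called in the hippocampus, with the diagonal of equal effects. Genes whose effects differ at an adjusted p value under 0.05 are red, 6 for the cortex and 267 for the cerebellum.

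Genes within 10 Mb of the start of *Atxn1* on chromosome 13 were counted as a neighbourhood of the knockin allele. Of 189 tested, 17 were called (8.99%, beside 6.06% of all genes), 6 raised and 11 lowered, with a median of -0.02. The smallest p values were those of *Rgs14*, *Dok3* (-1.01, adjusted p = 0.00411), *Id4* (-0.51, adjusted p = 0.00563), and *Cap2* (-0.43, adjusted p = 0.00724). The count was 5 without 154Q-69 or without 154Q-71, 8 without 154Q-75, and 10 without WT-220, WT-221, or WT-77.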

How the data were processed

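RNA of whole mouse brain regions was sequenced as read pairs. Per the labels and the study's methods, the authors trimmed reads (Trimmomatic 0.36), aligned them with STAR 2.7.2d to GRCm38.p6 with GENCODE M18, and deposited raw counts per gene, 1 file a library. The unstranded count column was used here, since first-strand counts made up 49.0% to 49.4%, so overlapping genes cannot be told apart. The 4 summary lines and 1 human gene line were left out (no-feature shares are given above), and gene positions are from GENCODE M21. Genes passing filterByExpr were tested with edgeR 4.0.16 (TMM, quasi-likelihood, Benjamini-Hochberg, adjusted p under 0.05; two-sided) in 11 hippocampal libraries; every adjusted p in the text is from edgeR. Regional differences are interaction terms over 14 libraries. By the labels the same mouse gave both libraries, so the block pairs by mouse, except that the cortical library labelled WT-221 goes against its label; deviations of a mouse's libraries correlated at -0.037 to 0.226 (cortex) and 0.003 to 0.365 (cerebellum). Libraries are separate mice.

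Named genes were, of the called genes whose 154Q libraries all lay outside the WT range, the 12 with the smallest p values and the 5 with the largest changes (mean of at least 1 CPM) per direction; 3 per direction called only with or only without 154Q-76; 4 per direction of each interaction; *Atxn1*, *Cic*, *Hoxb5*, and *Slc6a5*; and up to 4 called members of each list by p value, or 2 where none was called (models without a symbol were passed over). The members and lists were chosen with earlier results of these data known, 7 lists and 3 of the motifs after the leading genes were seen, and other genes were named with their values in view. There were 33 other lists. Of the hippocampal comparison 17 alternatives were tried, DESeq2 1.42.0 among them. Scripts were tested on simulated data. R 4.3.3, limma 3.58.1, and Python 3.11.15 were used. A few genes are not reported here.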

Additional observations from a re-analysis of the deposited data

Results flagged for a closer look

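In 7 of the 128 genes named by rule, 1 WT library stood far from the other 3, and chance flags about 1 in 20 groups. These were WT-220 in *Bdnf* (54.3 CPM), *Atp6v1b1* (0.273 CPM), and *Gabra6* (1.27 CPM), WT-70 in *Lamp5* (72.2 CPM), and WT-77 in *Rem2* (17.8 CPM), *Tmem72* (48.3 CPM), and *Sostdc1* (38.3 CPM).

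The effect of the expanded allele differed between hippocampus and cortex, by the interaction term, with a difference (hippocampus minus cortex, log2) of 0.72 for *Mpp3*, 2.94 for *Mybpc3*, 0.72 for *Nell1*, -0.75 for *Rgs14*, -0.70 for *Stxbp6*, -1.09 for *Rem2*, and -0.98 for *Prdm8*. Against the cerebellum it was 6.29 for *Hoxc4*, 3.62 for *Pax2*, 3.72 for *Skor1*, 0.67 for *Plcb3*, -1.89 for *Penk*, -1.15 for *Lingo3*, -1.34 for *Rasd1*, and -2.11 for *Fam163b*. *Hoxc4* is near 0 in WT and in the cerebellum, so it passed the filter on low counts through the 154Q hippocampal libraries.

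The left-out library 154Q-76 held 3058 read pairs of *Hoxb5* and 29248 of *Slc6a5*, the genes for which it was left out, above the WT maxima of 8 and 107. The line of a human gene in the count files held 36 read pairs in 154Q-71 and 20 in 154Q-75, above the WT hippocampal maximum of 4, while it held 2 in 154Q-69 and 52, 30, and 10 in the cerebellar libraries of WT-220, WT-221, and WT-70.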

How the results depend on the processing

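The hippocampal count of 1318 was 2038 with DESeq2 and its own filter (37571 genes fitted in place of 21754) and 760 against WT-70 and WT-77 alone, and 439 to 1085 with 1 library left out. It was 1312 with DESeq2 size factors, 1687 with *Ttr* or 944 with *Xist* as a covariate, 1373 with the number range as a covariate, 1122 on first-strand counts, 1106 with no filter, 1210 with WT and 154Q libraries alone, and 1268 with 154Q-76. The count of 23 differences from the cortex was 194 with DESeq2, 47 with no filter, and 1 to 153 with 1 mouse left out, and the 405 from the cerebellum was 842 with DESeq2 and 107 to 443 with 1 mouse left out. With the labelled mouse as a replicate block the counts were 15 and 719, and the first includes the cortical library labelled WT-221. Of 128 genes named by rule 98 were called, 53 of them under all alternatives and 61 in every fit that left out 1 library, and 94 of the 128 never changed sign. With 154Q-76 added, the log2 fold changes that changed sign included those of *Scn4b* (1.17), *Lamp5* (0.12), *C1ql1* (0.24), *Cyp51* (0.00), *Fat2* (0.37), *Sostdc1* (-0.12), and *Slc6a5* (6.91). *Sostdc1* was -0.13 with the number range as a covariate and -0.11 against WT-70 and WT-77 alone. *Slc6a5* ranged from -1.10 to 0.79 with 1 library left out, and *Slc6a5* was 0.20 with *Xist* as a covariate. The causes were not tested. Genes of a few read pairs limit the precision of the Hox values, and 3 mice limit that of all calls.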
